A study of Homo sapiens with 12 samples.

Results

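The VEGF family was followed in IMR32, an established human neuroblastoma cell line that carries amplified MYCN, as 10 genes of 27514 in the deposited table. They are the ligands VEGFA, VEGFB, VEGFC, VEGFD and PGF, the receptor tyrosine kinases FLT1, KDR and FLT4, and the co-receptors NRP1 and NRP2, each matched by its symbol. The family was chosen by measured values of these samples, on the grounds that VEGFD had the largest fall of the table and NRP1 a large rise. The levels of VEGFD and NRP1 are therefore given as a description with no test, and tests were run on the other 8 genes. RNA sequencing covered 12 samples in 4 groups of 3, all of the same line, electroporated with siRNA and harvested after 72 h in growth medium. In siCtrl the siRNA was a control, in siMYCN and siHAND2 it targeted the gene named, and siMYCN+siHAND2, termed the combined knockdown, had both targeting siRNAs. MYCN and HAND2 encode transcription factors of the basic helix-loop-helix class, and the question is how each, and both together, bear on the level of each family member. All groups share a single MYCN-amplified line, and the sources used here do not say whether the samples of a group were separate cultures, so p-values measure the spread between these samples.

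VEGF ligands are secreted proteins that act on receptor tyrosine kinases best known from endothelial cells. VEGFA signals mainly through KDR (VEGFR-2) and also binds FLT1 (VEGFR-1), VEGFB and PGF bind FLT1, and VEGFC and VEGFD bind FLT4 (VEGFR-3), the receptor of lymphatic endothelium. Neuropilins lack a kinase domain: they act as co-receptors for VEGF ligands and, with plexins, as receptors for class 3 semaphorins, which guide axons and migrating neural crest cells.

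Values are CPM, read counts per M reads of a library, as the authors deposited them. Depth, estimated from the smallest step between low values, was 31.6 to 64.2 M reads a sample, at which 3 reads are worth 0.0468 to 0.0949 CPM (counting error only). Between 64.3 and 65.8% of the reads lay in listed genes in siCtrl, 61.3 to 63.3% with siMYCN, 56.8 to 61.4% with siHAND2 and 44.3 to 58.4% in the combined knockdown, whose replicate 3 was lowest. The median log2 change of all tested genes against siCtrl was accordingly 0.01, −0.14 and −0.28 in siMYCN, siHAND2 and the combined knockdown, and 0.01, 0.01 and 0.04 after each sample was rescaled by its median ratio. Calls and directions of the family members tested that differ between these scales are given on both. MYCN was at 67.5% of its siCtrl level in siMYCN and 47.7% in the combined knockdown (61.0% rescaled), and HAND2 at 26.0% in siHAND2 and 30.7% in the combined knockdown (39.2% rescaled). HAND2 rose in siMYCN, to 326 ± 7.5 from 239 ± 15.3 CPM (limma adjusted p = 0.0062). Both genes overlap a listed antisense gene, and use of strand in the counting is not given in the sources used here. Of 9 sympathoadrenal markers fixed for the line's type, 8 averaged at least 1 CPM, with a sum of 521 to 819 CPM. The sum covers opposite moves. In siHAND2 PHOX2A went from 68.5 to 16.0 CPM and DBH from 2.65 to 0.929 CPM. ISL1 went from 21.3 to 47.15 CPM and CHGB from 38.3 to 68.4 CPM there.

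Of the 8 genes open to a test, 6 passed the filter of a mean of at least 1 CPM: VEGFA, VEGFB, VEGFC, PGF, FLT4 and NRP2. FLT1 and KDR did not pass. A gene is termed called at a Benjamini-Hochberg adjusted p under 0.05 in limma, over all 12680 genes tested. In siMYCN 3 of the 6 were called, PGF higher and VEGFA and FLT4 lower, where 33.7% of all genes tested were called (17.4% higher, 16.3% lower). In siHAND2 4 were called, NRP2 higher and VEGFB, VEGFC and FLT4 lower, where 42.7% of all genes were (12.3% higher, 30.4% lower). In the combined knockdown all 6 were called, VEGFA, PGF and NRP2 higher and VEGFB, VEGFC and FLT4 lower, where 67.4% of all genes were (17.4% higher, 50.1% lower). On the rescaled values the share of all genes called higher and lower was 25.4% and 22.5% in siMYCN, 25.9% and 24.9% in siHAND2, and 37.7% and 33% in the combined knockdown. There the calls among the 6 genes were the same except that PGF was also called higher in siHAND2. With 6 genes and such backgrounds, the counts describe the genes and do not set the family apart. The calls differ in direction within the family: FLT4 was lower in every knockdown, while no member was called higher in all 3 on the deposited scale and PGF was on the rescaled one.

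**Figure D1:**
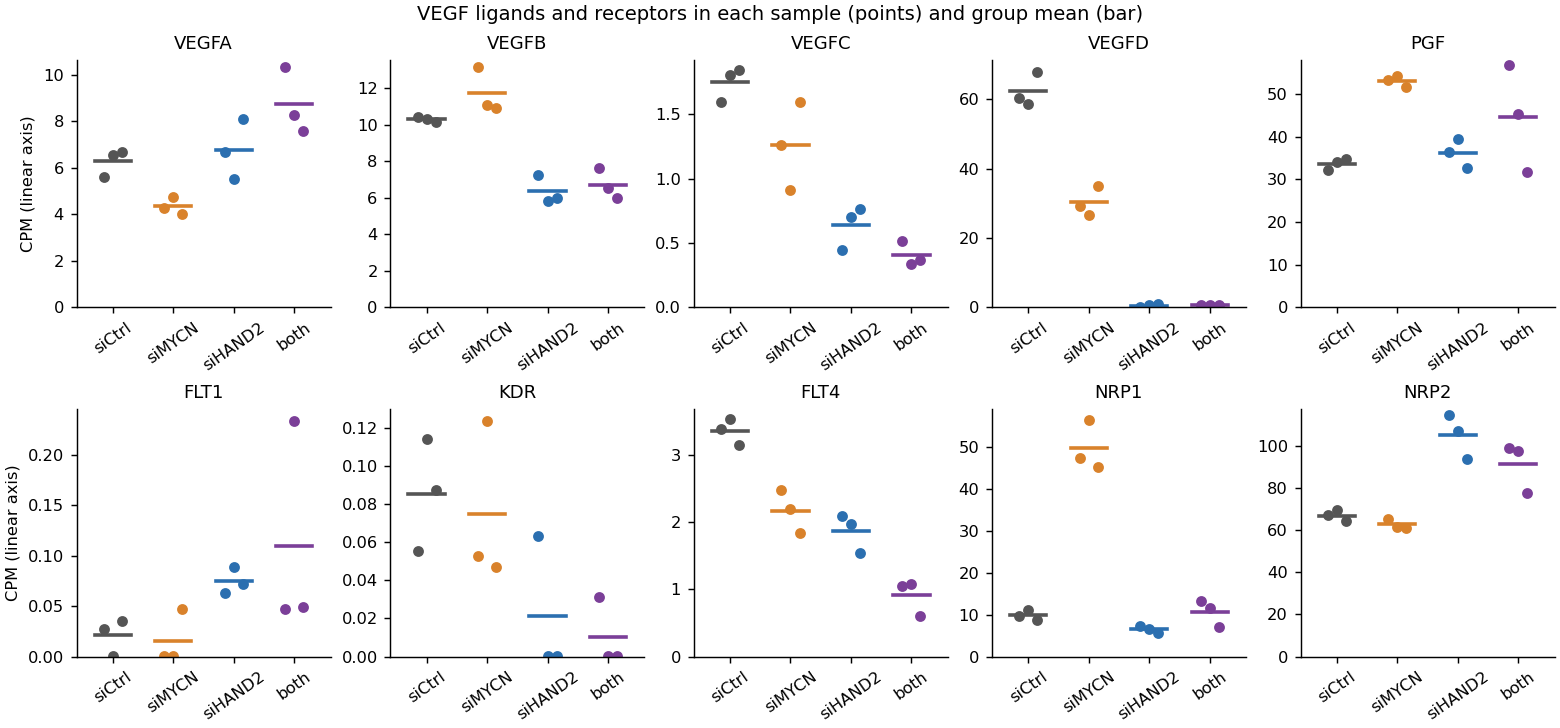
CPM (linear axis, own scale per gene) of each of the 10 genes in the 3 samples of each group, with points for samples in the order of replicates 1, 2 and 3, a bar for the group mean, and "both" for the combined knockdown. VEGFD lies at 58.6 to 67.9 CPM in siCtrl and under 1 CPM in siHAND2 and the combined knockdown, NRP1 is highest in siMYCN (45.2 to 56.5 CPM), and FLT1 and KDR stay near 0.

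VEGFD, the ligand of FLT4 and a growth factor of lymphatic vessels, was almost lost when HAND2 was reduced, and its level in siMYCN lay between that and the control. It measured 60.4, 58.6 and 67.9 CPM in siCtrl replicates 1, 2 and 3, 29.3, 26.6 and 35.1 CPM in siMYCN, 0.0387, 0.765 and 0.914 CPM in siHAND2, and 0.812, 0.756 and 0.629 CPM in the combined knockdown. The siCtrl and siMYCN samples form separate ranges far above the other 6 samples, and the siHAND2 and combined ranges overlap. The means were 62.3 ± 4.91 CPM in siCtrl, 30.3 ± 4.36 with siMYCN, 0.573 ± 0.468 with siHAND2 and 0.732 ± 0.0936 with both siRNAs (SD, n = 3 each). The siCtrl mean was thus 109-fold that of siHAND2 and 85.1-fold that of the combined knockdown (96.0-fold and 66.6-fold rescaled), and the siMYCN mean was 48.7% of it. The siMYCN mean was 41.4-fold the combined mean (32.7-fold rescaled), so the combined knockdown looked like siHAND2 for this gene. In bulk samples fewer cells that express a gene and less RNA per cell cannot be told apart.

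The siHAND2 spread rests on replicate 1, and the table places reads of the locus under a second name there. PIR-FIGF is a read-through gene on the same strand that covers all 38824 bases of the VEGFD gene. It stood at 0.638 CPM (about 20.2 estimated reads) in siHAND2 replicate 1, where VEGFD stood at about 1.2 reads, and at no more than 0.258 CPM in any other sample. Summed with PIR-FIGF, VEGFD was 62.4 ± 5.0, 30.5 ± 4.23, 0.811 ± 0.161 and 0.850 ± 0.0548 CPM in siCtrl, siMYCN, siHAND2 and the combined knockdown. The sum makes the siCtrl level 77.0-fold that of siHAND2 and 73.4-fold that of the combined knockdown (68.6-fold and 57.1-fold rescaled), and the outlying sample disappears. How the counting tool divided reads between the overlapping genes was not tested.

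VEGFD lies at chrX:15363713-15402536 on the minus strand of hg19, next to PIR, which encodes an iron-binding nuclear protein and ends 0.388 kb upstream of it on the same strand. PIR measured 13.6 ± 0.865 CPM in siCtrl, 11.01 ± 1.32 with siMYCN, 5.17 ± 0.0553 with siHAND2 and 4.32 ± 0.722 with both siRNAs. It was called lower in siHAND2 (log2 change −1.24, limma adjusted p = 5.6e-09) and in the combined knockdown (−1.46, limma adjusted p = 4.7e-11), and in siMYCN only on the rescaled values (−0.27, adjusted p = 0.014, against 0.063 as deposited). PIGA, an enzyme of GPI anchor synthesis 10.0 kb downstream on the same strand, changed by −0.76 in siHAND2 (limma adjusted p = 7.1e-06) and by −1.06 in the combined knockdown (adjusted p = 1.2e-08), or by −0.61 and −0.73 rescaled, and in siMYCN it was called lower only on the rescaled values (−0.21, limma adjusted p = 0.0496). These are the 2 of 9 listed genes within 250 kb of VEGFD that passed the filter, and both fell where VEGFD was lowest, by far less.

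**Figure D2:**
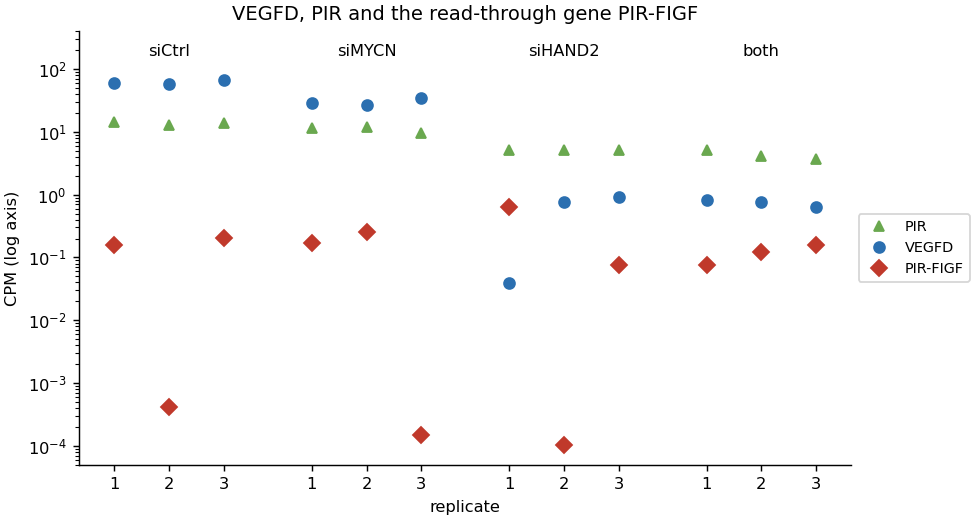
CPM (log axis) of PIR, VEGFD and the read-through gene PIR-FIGF in each of the 12 samples, grouped by knockdown, with "both" for the combined knockdown. VEGFD lies at 26.6 to 67.9 CPM in the 6 siCtrl and siMYCN samples and under 1 CPM in the 6 others, and siHAND2 replicate 1 has both the lowest VEGFD value (0.0387 CPM) and the highest PIR-FIGF value (0.638 CPM).

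Proteins of the class of HAND2 and MYCN bind E-boxes, written CANNTG. The 250 bases upstream of the listed VEGFD start (chrX:15402537-15402786, minus strand, read 5′ to 3′ from the GRCh37 genome) are shown because this gene carries the family's widest difference. Capitals mark every E-box:

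VEGFD upstream: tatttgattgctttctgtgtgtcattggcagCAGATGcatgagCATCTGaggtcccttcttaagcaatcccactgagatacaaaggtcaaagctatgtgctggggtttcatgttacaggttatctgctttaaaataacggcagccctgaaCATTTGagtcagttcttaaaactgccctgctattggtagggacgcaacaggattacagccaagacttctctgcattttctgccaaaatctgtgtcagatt

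The stretch holds 3 E-boxes, CAGATG at −219, CATCTG at −207 and CATTTG at −100, counted from −1 at the base before the listed start. The first pair are the same 6 letters read on opposite strands, 6 bases apart. Of windows of the same length before 27446 listed genes, 61.9% held at least 1 CANNTG and 10.1% held 3 or more; of those before the genes tested, 53.8% and 6.31% did. CATCTG or its reverse complement occurred in 11.7% of all such windows and 8.31% of those before genes tested, and among the 10 family members only in that of VEGFD. CACGTG, the E-box best known for MYC proteins, was in 6.33% of all windows and in none of the 10. CANNTG reads the same on both strands, so 1 strand was searched. VEGFB, PGF, KDR and NRP2 had 1 CANNTG each, and VEGFA, VEGFC, FLT1, FLT4 and NRP1 had none. The VEGFD window had a GC content of 43.2%, against 64.8 to 82.8% in the other 9 and a median of 57.6% over all listed genes. A match of letters does not show that a factor binds there.

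PGF (placental growth factor, chr14:75408533-75422468, minus strand), a FLT1 ligand, was the second most abundant ligand per length in siCtrl and rose in siMYCN. It measured 32.2, 34.1 and 34.7 CPM in siCtrl, 53.2, 54.1 and 51.6 CPM in siMYCN, 36.3, 39.4 and 32.7 CPM in siHAND2, and 56.6, 45.2 and 31.8 CPM in the combined knockdown. All siMYCN samples lie above all siCtrl and siHAND2 samples, whereas the combined samples run from below the lowest siCtrl sample to above the highest siMYCN sample. The log2 change of CPM + 1 was 0.64 in siMYCN (SE 0.14, limma adjusted p = 0.0010) and 0.36 in the combined knockdown (SE 0.14, adjusted p = 0.029). The combined call is not stable: the adjusted p was 0.085 without siCtrl replicate 1, 0.059 without siCtrl replicate 2, and 0.21 and 0.085 without combined replicates 1 and 2. On the rescaled values the combined samples were 57.2, 52.2 and 43.6 against 29.1 to 31.9 in siCtrl, with no overlap, and the change was 0.71 (adjusted p = 2.6e-06). In siHAND2 PGF changed by 0.10 as deposited (95% confidence interval −0.19 to 0.39) and by 0.25 rescaled (adjusted p = 0.021), so that call depends on the scale.

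VEGFA (chr6:43737946-43754224, plus strand), the principal angiogenic ligand, fell when MYCN alone was reduced and rose when both factors were. It measured 5.62, 6.57 and 6.67 CPM in siCtrl, 4.27, 4.74 and 4.02 CPM in siMYCN, 6.68, 5.53 and 8.10 CPM in siHAND2, and 10.3, 8.29 and 7.61 CPM in the combined knockdown. Every siMYCN sample was below every siCtrl sample, every combined sample was above every siCtrl sample, and the siHAND2 samples overlapped siCtrl. The change was −0.45 in siMYCN (SE 0.13, limma adjusted p = 0.0091), 0.08 in siHAND2 (95% confidence interval −0.18 to 0.35) and 0.41 in the combined knockdown (adjusted p = 0.0068). Rescaled, these were −0.43, 0.22 (interval −0.03 to 0.47) and 0.73, with the same calls. With no filter on low values the siMYCN change had an adjusted p of 0.052.

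For VEGFA the changes of the single knockdowns did not add up to that of the combined one on the log2 scale. The interaction, the effect of siMYCN in cells with siHAND2 minus its effect in cells without, was 0.78 (SE 0.18, limma adjusted p = 0.014) and 0.94 rescaled (adjusted p = 0.0040). It was the 1 interaction called among the 6 genes, where 4.01% of all genes were called, and its adjusted p was 0.065 without siHAND2 replicate 2 and 0.12 with no filter on low values. Those of VEGFB and NRP2 changed sign between the scales, from −0.10 and −0.11 as deposited to 0.07 and 0.07 rescaled, and were called on neither. The other 5 interactions lay, as deposited, between −0.38 for PGF (95% confidence interval −0.79 to 0.03) and 0.08 for VEGFC (−0.31 to 0.47), and that of PGF had an adjusted p of 0.017 without combined replicate 1. A miss of the threshold leaves differences of the size of these intervals possible.

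VEGFB (chr11:64002056-64006737, plus strand), a FLT1 ligand linked to the metabolism of heart and muscle, fell in both groups in which HAND2 was reduced. It measured 10.5, 10.3 and 10.2 CPM in siCtrl, 13.2, 11.1 and 10.9 CPM in siMYCN, 7.25, 5.86 and 6.00 CPM in siHAND2, and 7.65, 6.53 and 6.00 CPM in the combined knockdown. The 6 samples with less HAND2 all lie below the 6 others, and the siMYCN samples all lie above siCtrl. The change was −0.62 in siHAND2 (SE 0.12, limma adjusted p = 0.00010), −0.56 in the combined knockdown (adjusted p = 0.00016), and 0.16 in siMYCN (95% confidence interval −0.07 to 0.40). Rescaling reduced the combined change to −0.24 (adjusted p = 0.020).

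VEGFC (chr4:177604685-177713900, minus strand), the other FLT4 ligand and the main driver of lymphatic growth, was low throughout and lowest with both siRNAs. It measured 1.60, 1.80 and 1.85 CPM in siCtrl, 1.27, 0.914 and 1.60 CPM in siMYCN, 0.443, 0.706 and 0.762 CPM in siHAND2, and 0.514, 0.337 and 0.366 CPM in the combined knockdown. The siHAND2 and combined samples all lie below the siCtrl and siMYCN samples. VEGFC passed the filter only through the siCtrl and siMYCN samples, so its calls are partly set by the filter. The change was −0.75 in siHAND2 (limma adjusted p = 6.6e-05) and −0.97 in the combined knockdown (adjusted p = 6.1e-07), and with no filter the adjusted p values were 0.00069 and 3.5e-05. In siMYCN it was −0.29 (adjusted p = 0.096, and 0.048 without siMYCN replicate 3).

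**Figure D3:**
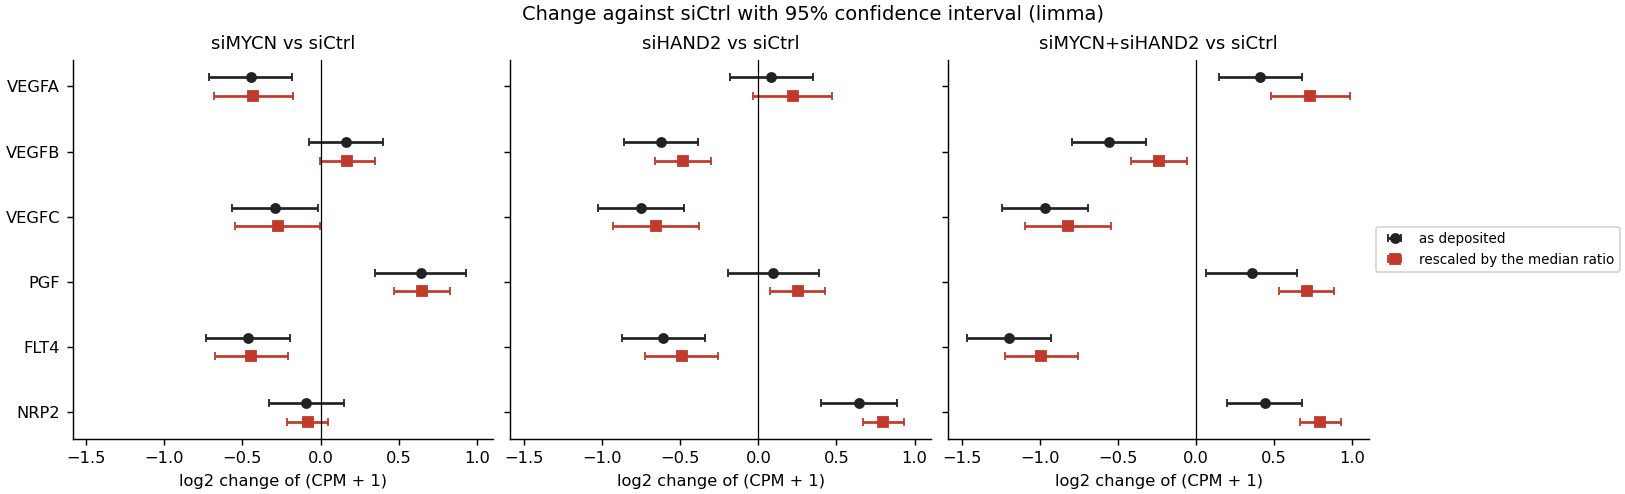
Log2 change of CPM + 1 against siCtrl with its 95% confidence interval from limma, for the 6 tested genes in the 3 knockdowns, as deposited (circles) and rescaled by the median ratio (squares). FLT4 lies left of 0 in all 3 panels, VEGFA lies left of 0 in siMYCN (−0.45) and right of 0 in the combined knockdown (0.41), and rescaling moves the combined values to the right.

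Divided by transcript length, which allows comparison between genes, the ligand mixture changed more than its total. In siCtrl VEGFD made up 52.2 ± 1.72% of the summed ligand CPM per kb and PGF 33.6 ± 1.15%. VEGFD was 27.4 ± 3.31% with siMYCN, 1.05 ± 0.875% with siHAND2 and 1.12 ± 0.142% in the combined knockdown, and PGF was 57.1 ± 2.82%, 77.6 ± 2.91% and 78.9 ± 2.84%. The leading ligand was therefore VEGFD in siCtrl and PGF in each knockdown. VEGFA, at 3.02 ± 0.222% in siCtrl, was 7.08 ± 1.74% in siHAND2 and 7.64 ± 0.935% in the combined knockdown, partly because shares must add to the whole. The summed level was 57.7 ± 2.91 CPM per kb in siCtrl, 53.4 ± 1.38 with siMYCN, 26.7 ± 1.49 with siHAND2 and 32.3 ± 8.05 with both siRNAs (37.1 ± 3.75 rescaled). Shares within a sample do not depend on the scaling. They include VEGFD and so carry the choice of the family, and no test was run on them.

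**Figure D4:**
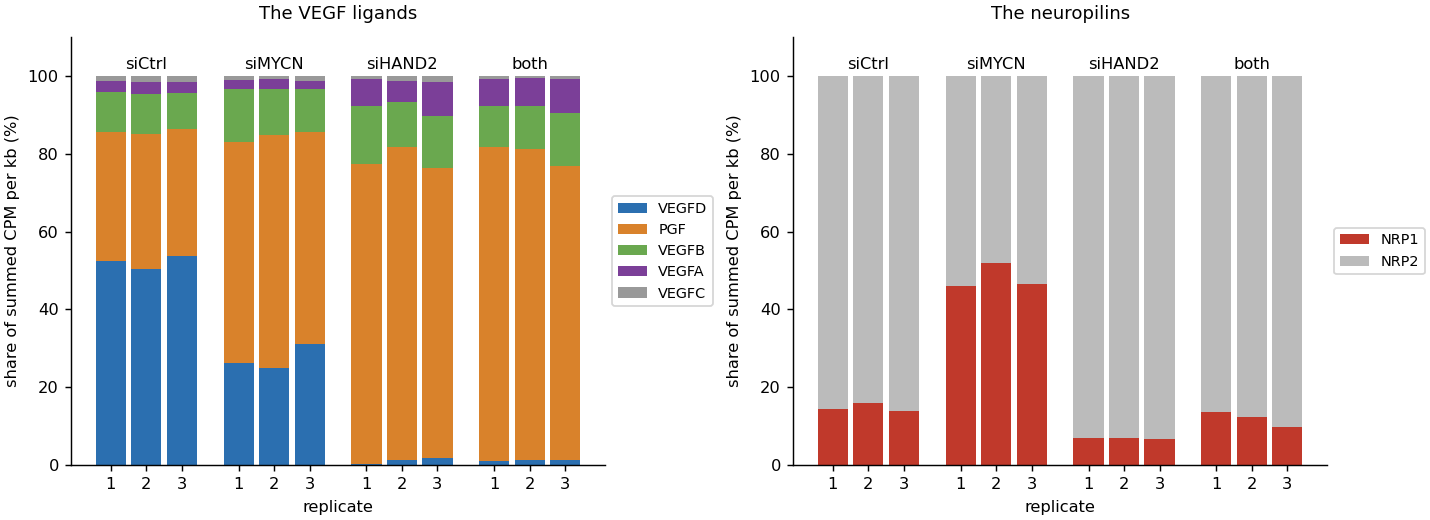
Share (%) of each gene in the summed CPM per kb of the VEGF ligands (left) and of the neuropilins (right), as stacked bars for each of the 12 samples, with "both" for the combined knockdown. VEGFD takes 50.3 to 53.8% of the ligands in siCtrl and at most 1.76% in the 6 samples with less HAND2, and NRP1 takes 46.0 to 52.0% of the neuropilins in siMYCN and at most 16.0% in every other sample.

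The receptor tyrosine kinases were scarce. FLT1 (chr13:28874483-29069266, minus strand) stood at an estimated 1, 0 and 2 reads in siCtrl, 0, 0 and 2 in siMYCN, 2, 3 and 3 in siHAND2, and 3, 9 and 2 in the combined knockdown. KDR (chr4:55944426-55991763, minus strand) stood at 2, 5 and 5 reads in siCtrl, 2, 5 and 2 in siMYCN, 2, 0 and 0 in siHAND2, and 2, 0 and 0 in the combined knockdown. The highest values were 0.233 CPM for FLT1, in combined replicate 2, and 0.124 CPM for KDR, in siMYCN replicate 2. Both genes failed the filter. With no filter FLT1 was not called in any knockdown, though its siHAND2 and combined samples all lie above siCtrl, and KDR was called lower in the combined knockdown (log2 change −0.10, limma adjusted p = 0.028, and 0.035 rescaled), where all 3 samples lie below siCtrl. That KDR call rests on the reads just given, and 3 reads is the level that a count of 0 allows. The cells held transcripts of VEGFA, VEGFB and PGF with almost none of the kinases that bind them.

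FLT4 (chr5:180028506-180076625, minus strand), the kinase receptor of VEGFC and VEGFD, was the 1 kinase above 1 CPM and fell in every knockdown. It measured 3.39, 3.54 and 3.15 CPM in siCtrl, 2.48, 2.20 and 1.84 CPM in siMYCN, 2.09, 1.97 and 1.55 CPM in siHAND2, and 1.04, 1.09 and 0.609 CPM in the combined knockdown. All 9 knockdown samples lie below the lowest siCtrl sample, and all combined samples lie below both single knockdowns, which overlap each other. The change was −0.46 in siMYCN (SE 0.13, limma adjusted p = 0.0075), −0.61 in siHAND2 (adjusted p = 0.00053) and −1.20 in the combined knockdown (adjusted p = 1.2e-08). Rescaled, it was −0.45, −0.49 and −0.99 with the same calls. The siMYCN call was lost without siMYCN replicate 3 (adjusted p = 0.055). The interaction was −0.13 (95% confidence interval −0.50 to 0.25).

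NRP1 (chr10:33466419-33623834, minus strand), a co-receptor for VEGFA and for semaphorin 3A, was high in siMYCN and near control in the combined knockdown. It measured 9.64, 11.2 and 8.75 CPM in siCtrl, 47.5, 56.5 and 45.2 CPM in siMYCN, 7.25, 6.62 and 5.67 CPM in siHAND2, and 13.2, 11.5 and 7.12 CPM in the combined knockdown. The siMYCN samples stand far above the 9 others, the siHAND2 samples lie below siCtrl, and the combined samples overlap siCtrl, also rescaled (9.76 to 13.3 against 8.05 to 10.2). The means were 9.87 ± 1.26, 49.7 ± 5.99, 6.51 ± 0.796 and 10.6 ± 3.13 CPM, so that siMYCN was at 5.04-fold and siHAND2 at 66.0% of siCtrl. The siMYCN mean was 4.69-fold the combined mean (3.76-fold rescaled), though the siRNA against MYCN was given in both. Of 12 endothelial markers, 1 averaged at least 1 CPM over all samples. Their summed level was 3.71 to 4.14 CPM in siMYCN and 2.47 to 3.17 CPM in the other samples, PECAM1 stood at the deposited constant in every siCtrl and siMYCN sample, and ECSCR, EMCN and PLVAP did in all 12. In siCtrl, siMYCN, siHAND2 and the combined knockdown, VWF averaged 0.179, 0.973, 0.0515 and 0.154 CPM, ERG 0.0643, 0.221, 0.0186 and 0.0191 CPM, and CDH5 0.490, 1.40, 1.12 and 1.38 CPM. VWF and ERG thus had their highest mean in siMYCN, as NRP1 did, and CDH5 was higher than in siCtrl in all 3 knockdowns. CLDN5 and ESAM went the other way, with their highest mean in siCtrl (0.368 and 0.0327 CPM, against 0.321 and 0.00889 CPM in siMYCN). The part of these markers in the NRP1 level was not tested.

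NRP2 (chr2:206547224-206662858, plus strand), the co-receptor for VEGFC and semaphorin 3F, rose where HAND2 was reduced. It measured 67.2, 69.4 and 64.3 CPM in siCtrl, 65.6, 61.6 and 61.3 CPM in siMYCN, 115, 107 and 94.0 CPM in siHAND2, and 99.3, 97.9 and 77.6 CPM in the combined knockdown. All 6 samples with less HAND2 lie above the 6 others. The change was 0.64 in siHAND2 (SE 0.12, limma adjusted p = 8.9e-05), 0.44 in the combined knockdown (adjusted p = 0.0020) and −0.09 in siMYCN (95% confidence interval −0.33 to 0.15). Rescaled, the changes were 0.80, 0.79 and −0.08. Per length, NRP1 was 14.8 ± 1.12% of both neuropilins in siCtrl, 48.2 ± 3.31% with siMYCN, 6.77 ± 0.143% with siHAND2 and 11.8 ± 1.91% with both siRNAs. Their sum was 11.8 ± 0.608 CPM per kb in siCtrl, 18.3 ± 1.02 with siMYCN, 17.0 ± 1.74 with siHAND2 and 15.7 ± 2.38 with both siRNAs, and rescaled it was 10.8 ± 0.484, 16.8 ± 0.848, 17.3 ± 1.20 and 18.2 ± 1.05, so a similar summed level was made of different members in siMYCN and siHAND2.

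The order of levels per length changed with the knockdown. In siCtrl it ran VEGFD (30.1 CPM per kb), PGF (19.4), NRP2 (10.1), VEGFB (5.72), NRP1 (1.75), VEGFA (1.74), VEGFC (0.773), FLT4 (0.576), KDR (0.0147) and FLT1 (0.00293). NRP1 and VEGFA overlapped over the samples, and the other neighbours did not. In siMYCN NRP1 (8.82 CPM per kb) moved up to overlap NRP2 (9.46). In siHAND2 VEGFD (0.277 CPM per kb) dropped to overlap VEGFC (0.282), which overlapped FLT4 (0.320).

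The knockdowns were also compared with each other. Between siMYCN and siHAND2, where 35% of all genes were called, 5 of the 6 were called: VEGFB, VEGFC and PGF were higher in siMYCN (by 0.79, 0.46 and 0.54) and VEGFA and NRP2 lower (−0.53 and −0.73). The VEGFC call was lost without siMYCN replicate 3 (limma adjusted p = 0.079) or siHAND2 replicate 1 (0.057). The FLT4 difference was 0.14 (95% confidence interval −0.12 to 0.41). Against siMYCN alone, where 58.9% of all genes were called, the combined knockdown had 5 calls: VEGFA by 0.86 and NRP2 by 0.53 higher, and VEGFB by −0.72, VEGFC by −0.68 and FLT4 by −0.73 lower. PGF changed by −0.28 as deposited (limma adjusted p = 0.087, and 0.0024 without combined replicate 1). Rescaled, it changed by 0.06 (adjusted p = 0.56), so its direction depends on the scale. Against siHAND2 alone, where 40.3% were called, FLT4 fell further by 0.59 on the log2 scale (limma adjusted p = 0.00084) and VEGFA rose by 0.33 (adjusted p = 0.044). The VEGFA call against siHAND2 was lost on leaving out any of 9 of the 12 samples (adjusted p of 0.051 to 0.27), but it was 0.51 with an adjusted p of 0.0026 on the rescaled values. PGF and VEGFB were higher there only after rescaling (0.46 and 0.24, adjusted p = 0.00043 and 0.025), PGF also without combined replicate 3 (0.48, adjusted p = 0.00057), and NRP2 was called lower only without combined replicate 1 (−0.27, adjusted p = 0.043).

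Genes that act with the neuropilins were called in both directions. Of 13 semaphorin, plexin and adaptor genes 11 were tested, and 5 rose and 1 fell in siMYCN (7 and 1 rescaled), 4 rose and 2 fell in siHAND2 (5 and 2 rescaled), and 6 rose and 3 fell in the combined knockdown (8 and 2 rescaled). Their median change was 0.27, 0.19 and 0.47, against 0.01, −0.14 and −0.28 over all genes. Of all genes, 17.4% were called higher and 16.3% lower in siMYCN, 12.3% and 30.4% in siHAND2, and 17.4% and 50.1% in the combined knockdown (25.4% and 22.5%, 25.9% and 24.9%, and 37.7% and 33% rescaled). PLXNA2 and PLXNA3, signalling partners of the neuropilins, rose in each knockdown. PLXNA2 went from 27.7 ± 1.07 CPM in siCtrl to 67.5 ± 5.55 with siMYCN, 59.1 ± 7.16 with siHAND2 and 86.2 ± 15.02 with both siRNAs. SEMA3C, a ligand for NRP1 and NRP2, went from 0.174 ± 0.0477 to 2.66 ± 0.230 in siHAND2 and 8.41 ± 2.17 CPM in the combined knockdown, the groups through which alone it passed the filter, so that its calls are partly set by the filter. PLXND1, the plexin of semaphorin 3E, fell from 33.2 ± 5.91 to 15.3 ± 1.09 CPM in siMYCN (−1.06, limma adjusted p = 4.2e-06) and to 8.85 ± 1.70 CPM in the combined knockdown (−1.80, adjusted p = 6.1e-11). PLXND1 was also called lower in siHAND2, at 23.2 ± 4.54 CPM (−0.50, limma adjusted p = 0.0075, and 0.030 rescaled). SEMA3A, the ligand of NRP1, fell to 3.61 ± 0.530 CPM in siHAND2 and 2.60 ± 0.660 CPM in the combined knockdown from 7.06 ± 0.314 CPM.

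Genes downstream of the VEGF receptor kinases were called only higher in siMYCN and in both directions in siHAND2 and the combined knockdown. Of 24 listed, 19 were tested, of which 5 rose and none fell in siMYCN (8 and none rescaled), 3 rose and 5 fell in siHAND2 (6 and 5 rescaled), and 4 rose and 8 fell in the combined knockdown (9 rose and 4 fell rescaled). The all-gene shares called higher and lower were 17.4% and 16.3% in siMYCN, 12.3% and 30.4% in siHAND2, and 17.4% and 50.1% with both siRNAs. Rescaled, these shares were 25.4% and 22.5%, 25.9% and 24.9%, and 37.7% and 33%. The list's median change was 0.14, −0.07 and −0.30, against 0.01, −0.14 and −0.28 for all genes. PRKCA, protein kinase C alpha, rose from 88.2 ± 10.8 to 155 ± 15.6 CPM in siMYCN and fell to 40.5 ± 8.27 CPM in siHAND2 and 38.7 ± 9.90 CPM in the combined knockdown. PIK3R1, the regulatory subunit of PI3 kinase, rose from 10.7 ± 0.646 to 23.3 ± 0.583 CPM in siMYCN and 29.4 ± 7.51 CPM in the combined knockdown. PPP3CA, a calcineurin subunit, rose from 55.9 ± 2.88 to 118 ± 9.86 CPM in siHAND2.

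VEGFA is a textbook target of the hypoxia-inducible factors (HIF), and the other listed HIF targets were called in both directions in every knockdown. Of 26 listed targets 23 were tested, and 3 rose and 11 fell in siMYCN (5 and 14 rescaled), 3 rose and 9 fell in siHAND2 (6 and 8 rescaled), and 3 rose and 14 fell in the combined knockdown (9 rose and 11 fell rescaled). Among all genes 17.4% were called higher and 16.3% lower in siMYCN, 12.3% and 30.4% in siHAND2, and 17.4% and 50.1% in the combined knockdown. Rescaled, these shares were 25.4% and 22.5%, 25.9% and 24.9%, and 37.7% and 33%. The median change of the targets was −0.29, −0.23 and −0.48 (−0.28, −0.08 and −0.15 rescaled), against 0.01, −0.14 and −0.28 over all genes. LDHA, lactate dehydrogenase A, was at 618 ± 33.1 CPM in siCtrl, 320 ± 13.3 with siMYCN, 313 ± 17.5 with siHAND2 and 122 ± 22.2 with both siRNAs, where its log2 change was −2.35 (limma adjusted p = 3.2e-14). P4HA1, a collagen prolyl hydroxylase, measured 26.4 ± 2.12 CPM in siCtrl, 13.3 ± 0.895 with siMYCN, 13.1 ± 1.05 with siHAND2 and 6.25 ± 1.58 with both siRNAs. NDRG1 went the other way, from 6.90 ± 0.336 to 14.4 ± 1.20 CPM in siMYCN and 14.2 ± 5.04 CPM in the combined knockdown. Of 11 HIF subunits and regulators 9 were tested, with 1 higher, 1 lower and 2 lower in siMYCN, siHAND2 and the combined knockdown (3 higher and 1 lower, 2 and 1, and 3 and 1 rescaled). HIF1A changed by −0.34 in the combined knockdown as deposited (limma adjusted p = 0.021) and by 0.02 rescaled, so its direction depends on the scale.

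Genes that process VEGFC and VEGFD or mark lymphatic cells were sparse, with 8 of 12 tested. None rose and 2 fell in siMYCN (1 and 2 rescaled), 3 rose and 1 fell in siHAND2 (5 and 1 rescaled), and 4 rose and 1 fell in the combined knockdown (6 and 1 rescaled). In these knockdowns 17.4%, 12.3% and 17.4% of all genes were called higher (25.4%, 25.9% and 37.7% rescaled) and 16.3%, 30.4% and 50.1% lower (22.5%, 24.9% and 33% rescaled). The median change was 0.08, 0.11 and 0.12, where that of all genes was 0.01, −0.14 and −0.28. ADAMTS3, the protease that activates VEGFC, went from 1.75 ± 0.268 to 0.908 ± 0.250 CPM in siHAND2 and 0.325 ± 0.0592 CPM in the combined knockdown, and it passed the filter only through its siCtrl and siMYCN samples, so its calls are partly set by the filter. PCSK5, a proprotein convertase, rose to 7.28 ± 0.675 and 6.42 ± 1.15 CPM from 4.12 ± 0.334 CPM. PROX1, a transcription factor of lymphatic and neural cells, rose to 36.6 ± 8.43 CPM in siHAND2 from 19.4 ± 2.41 CPM.

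Among 21 other angiogenic ligands and receptors 8 were tested: 3 rose and 3 fell in siMYCN, and 3 rose and 4 fell in siHAND2 (3 and 3 rescaled) and in the combined knockdown. Calls among all genes were 17.4% higher and 16.3% lower in siMYCN, 12.3% and 30.4% in siHAND2, and 17.4% and 50.1% in the combined knockdown. Rescaled, these shares were 25.4% and 22.5%, 25.9% and 24.9%, and 37.7% and 33%. The median change of the 8 was −0.03, −0.12 and −0.55, against 0.01, −0.14 and −0.28 for all genes. JAG1, a Notch ligand, rose from 2.89 ± 0.396 to 9.96 ± 0.358, 7.94 ± 0.452 and 13.1 ± 3.87 CPM in siMYCN, siHAND2 and the combined knockdown. APLNR, the apelin receptor, went from 0.764 ± 0.171 to 3.24 ± 0.272 CPM in siHAND2 and 7.14 ± 1.31 CPM in the combined knockdown, the groups through which alone it passed the filter. PDGFRA, a PDGF receptor, fell from 104 ± 3.15 to 52.9 ± 5.72 and 35.2 ± 7.95 CPM in these groups. Of 9 inhibitors of angiogenesis 7 were tested, with 3 up and 2 down in siMYCN, none up and 3 down in siHAND2 (3 and 3 rescaled), and 2 up and 3 down with both siRNAs (3 and 3 rescaled), with median changes of 0.12, 0.04 and −0.12 beside the all-gene shares and medians just given. SPARC, a matrix protein that binds VEGF, fell from 58.5 ± 2.98 to 20.2 ± 2.81 CPM in siHAND2 and 13.5 ± 4.05 CPM in the combined knockdown. ADAMTS1, a metalloprotease that binds VEGFA, fell from 6.98 ± 1.05 to 2.37 ± 0.277, 2.39 ± 0.646 and 0.959 ± 0.202 CPM in the 3 knockdowns. TIMP3 rose from 62.4 ± 2.53 to 150 ± 1.00 CPM in siMYCN. SVBP rose from 4.36 ± 0.341 to 7.38 ± 1.22 CPM in siMYCN and 8.27 ± 0.995 CPM in the combined knockdown. Fibroblast and Schwann cell markers summed to 8.65 to 10.7 CPM in siCtrl, 9.04 to 9.92 in siMYCN and 3.27 to 4.32 in the 6 samples with less HAND2, with COL1A1 going from 7.90 ± 1.01 to 1.41 ± 0.316 and 0.781 ± 0.0894 CPM. Their part in the HAND2 differences was not tested.

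**Figure D5:**
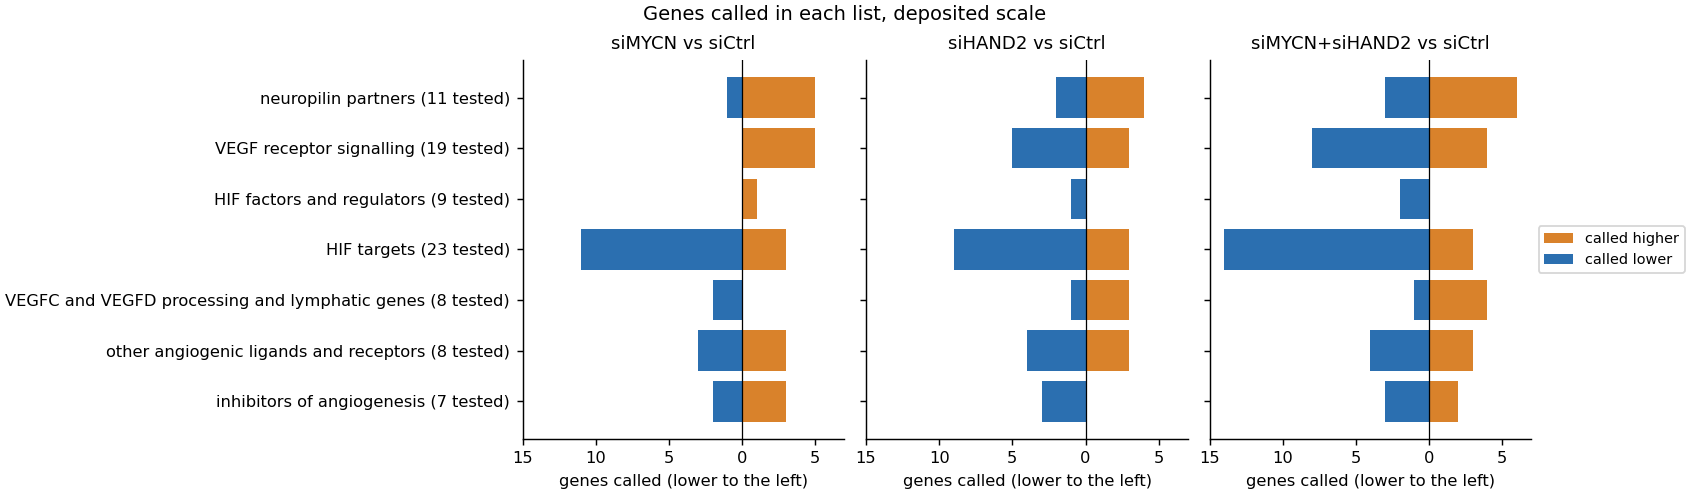
Number of genes called higher (right of 0) and lower (left of 0) against siCtrl on the deposited scale in each list of related genes, for the 3 knockdowns, with the number tested in brackets. HIF targets have 11, 9 and 14 calls to the left, and neuropilin partners have 5, 4 and 6 to the right.

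The genes whose pattern over the 12 samples was most like that of VEGFD, by Pearson's r of log2(CPM + 1) among 10192 genes with a mean of at least 5 CPM, were C9orf3 (0.991, 0.888 rescaled), B2M (0.980), KCNG1 (0.980), ITGB1BP1 (0.980) and IDI1 (0.979). KCNG1, a potassium channel subunit, measured 101 ± 5.18 CPM in siCtrl and 18.9 ± 0.753 in siHAND2, a smaller fall than that of VEGFD. Those most like NRP1 were TGFB2 (0.989), AMER3 (0.985), CDC42EP3 (0.980), DHRSX (0.979, 0.525 rescaled) and VSTM2A (0.979). TGFB2, a TGF-beta ligand, measured 7.23 ± 0.317 CPM in siCtrl, 25.6 ± 1.62 with siMYCN, 5.93 ± 0.219 with siHAND2 and 8.03 ± 1.23 with both siRNAs. The samples share groups and depth, so these values are a description. The 1 listed gene within 250 kb of NRP1, ITGB1, was not called in any knockdown as deposited and was called higher in siMYCN after rescaling (0.31, limma adjusted p = 0.0017).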

How the data were processed

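RNA of 12 IMR32 samples was sequenced, and the authors deposited CPM per gene. STAR 2.5.1, Partek and hg19 are named per the submitters' processing notes; the counting tool, use of strand and annotation are not given in the sources used here. The deposited values carry a constant of 0.0001 CPM. Low values, divided by the estimated worth of 1 read, were whole within 0.02 reads in 87.6 to 89.2% of cases, so reads were not recovered and no count test was run. The 4 groups of 3 were compared with limma 3.58.1 (R 4.3.3; lmFit, eBayes with trend) on log2(CPM + 1), which understates changes of low genes, for 12680 genes with a mean of at least 1 CPM, with 8 residual degrees of freedom and two-sided tests. The fit was checked on simulated data. Levels per length use GENCODE canonical transcripts. Samples of a group differed by a chi-square of 3.35 to 37.7 per gene, so none was merged. Same-numbered samples deviated together in siCtrl and siMYCN (correlations 0.44, 0.15 and 0.31) and in siMYCN and siHAND2 (0.33, 0.14 and 0.32). The fit behind the reported tests had no term for this pairing. A replicate block by the titles' numbers was used only as an alternative setting. With it 4926 genes were called in siMYCN, against 4273, and 5163 between siMYCN and siHAND2, against 4443. Members and lists were chosen with earlier results of these data known. Named genes were drawn from a set given by a rule: the 10 members, both targeted genes and filtered neighbours within 250 kb. The set also held, per list and knockdown, the 2 largest called rises and falls, and the 5 genes most like VEGFD and NRP1. Not all of its list genes are named. The PLXNA2, LDHA and P4HA1 levels outside the rule, endothelial markers other than CDH5, and the E-box motifs were picked after values were seen. VEGFD summed with PIR-FIGF, and rescaling combined with no filter or a pseudocount of 0.1, were added after seeing the data.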

Additional observations from a re-analysis of the deposited data

Results flagged for a closer look

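Each result here is an interaction, the effect of siMYCN with siHAND2 present minus its effect without it, on log2(CPM + 1). Each was called by limma at an adjusted p under 0.05, so that on this scale the effect of an siRNA differed with the other present. Of all 12680 genes tested, 508 interactions were called (4.01%), 45 higher and 463 lower, with a median of −0.18. Rescaled, 779 were called, 212 higher and 567 lower, with a median of −0.009. Every value listed here kept its sign after rescaling, and all but SEMA3A stayed called. Groups of 3 are too small for a test of outlying samples. VEGFA had an interaction of 0.775 (adjusted p = 0.014), a call lost with no filter on low values (0.12) and without siHAND2 replicate 2 (0.065). The other positive values were APLNR at 0.853 (limma adjusted p = 0.012), SEMA3C at 0.752 (0.029) and ADAMTS14 at 0.605 (0.031). APLNR and SEMA3C passed the filter only through siHAND2 and the combined knockdown, so these calls are partly set by it. The SEMA3C sign rests on the 1 CPM added before the log. As a ratio of means, siMYCN raised it more without siHAND2 (0.174 to 0.766 CPM) than with it (2.66 to 8.41 CPM). Among matrix and receptor genes, TIMP3 stood at −1.37 (adjusted p = 0.00020), PDGFRA at −1.02 (0.0022), PLXNA2 at −0.724 (0.020) and PDGFRB at −0.622 (0.046). The Notch ligand JAG1 stood at −0.881 (adjusted p = 0.014), the kinase PRKCA at −0.884 (0.023) and SEMA3A at −0.636 (0.046, and 0.064 rescaled). The sympathoadrenal markers DBH and CHGB stood at −1.29 (limma adjusted p = 0.00057) and −0.991 (0.0037). DBH averaged 0.929 and 0.942 CPM in siHAND2 and the combined knockdown and passed the filter only through the other groups.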

How the results depend on the processing

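Of 988 values of the 6 tested members under the alternatives, 940 kept their side of the threshold, 26 lost a call and 22 gained one. None changed sign with a call in either setting. The 940 include values whose sign differed but which were called in neither setting, such as PGF in the combined knockdown against siMYCN (−0.28, and 0.06 rescaled). Members called went to 2 for siHAND2 and to 3 for the combined knockdown against siMYCN with a mean of at least 5 CPM, which leaves fewer members tested. Of the 10192 genes at that filter 4440 and 6365 were called, against 5411 and 7471 of 12680 in the main fit. Members called in the combined knockdown against siHAND2 were 1 with no filter, a mean of at least 5 CPM, only the groups compared, or an adjusted p under 0.01, were 4 under both rescalings and each combination with rescaling, and ranged from 1 to 3 on leaving out each replicate. Over all genes 5104 were called in the main fit, 4628 with no filter, 4385 at a mean of at least 5 CPM and 3602 with only the groups compared. Under the rescalings 6300 and 6278 were, and 3905 to 6962 on leaving out each replicate. The interaction had 0 calls with no filter or an adjusted p under 0.01 (limma; main count 1), and 0 to 2 on leaving out each replicate. With the replicate block no member's call was lost, and members called against siCtrl stayed at 3, 4 and 6. PGF in the combined knockdown against siMYCN was gained on the deposited scale (−0.28, limma adjusted p = 0.038), where the rescaled change without the block was 0.06. In the other pairs of groups same-numbered samples did not all deviate together.

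HIF1A in the combined knockdown reversed to 0.019 by the median ratio, alone or with the block or no filter, to 0.0093 by the sum over listed genes, and to 0.019 with a pseudocount of 0.1. Leaving out each replicate, VEGFD in the combined knockdown against siHAND2 ranged from −0.087 (without siHAND2 replicate 1) to 0.35, and NRP1 in the combined knockdown from −0.10 to 0.30, below 0 without siCtrl replicate 3 or combined replicates 1 or 2. Rescaling by the median ratio took list calls to 8 for VEGF receptor signalling in siMYCN, to 4, 3 and 4 for HIF factors in the 3 knockdowns, to 6 for inhibitors in siHAND2 and to 2 for fibroblast and Schwann cell markers in siMYCN. Over all genes it took calls from 4273, 5411 and 8551 to 6071, 6439 and 8962 in siMYCN, siHAND2 and the combined knockdown. The cause of these changes was not tested. Of all genes, 4273 were called in siMYCN against 6963 with only the groups compared and 6480 rescaled with the block, 4443 between siMYCN and siHAND2 against 6730 with only the groups compared, and 508 interactions against 154 with no filter, 779 and 795 under the rescalings, 1282 with the block, 1262 with both, 771 rescaled with a pseudocount of 0.1 and 263 to 4443 on leaving out each replicate (4443 without combined replicate 1). FLT1 and KDR, at 0 to 9 estimated reads a sample, fail the filter; with none, KDR was called lower in the combined knockdown (limma adjusted p = 0.028).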
